A study of Mus musculus with 14 samples.

Results

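PiC neurons that project to MeA were compared with PiC neurons that project to PrL in female mice, using 3 female PiC-MeA and 4 female PiC-PrL libraries. These 7 of the 14 libraries of the series were those labelled female, and all genes on the X and Y chromosomes were left out. All animals were wild-type C57BL/6 mice, and every neuron had been infected with AAVretro-EGFP, a virus that is taken up at axon endings and carried back to the cell body, where it makes a green fluorescent protein. The virus (0.1 µl per injection) was placed in PrL for one group and in MeA for the other. No group without the virus was analysed here, so infection is shared by both groups. Each library was made from 4 to 5 EGFP-labelled cells drawn into a micropipette with a tip of 60 to 100 µm, pooled in 1 tube and amplified by SMART-Seq2, a full-length method for polyadenylated RNA. The other 7 libraries, from male mice labelled in the same way (4 PiC-PrL and 3 PiC-MeA), share no tube with the female ones and served as separate samples for the genes named below. PiC, PrL and MeA stand as written in the sample labels, which do not spell them out. The labels name no animal, age or batch for a tube, so p-values measure only the spread between these tubes, which may be partly technical.

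Many long-range projection neurons of the forebrain are excitatory cells that release glutamate, and cells that lie side by side can send their axons to different targets. Such cells share most of their expressed genes and are usually told apart by graded levels of transcription factors, axon guidance receptors, ion channels and receptors for peptides and amines. A retrograde virus labels a neuron by its target and not by its type, and a micropipette can also take up RNA from the processes of neighbouring glia and from inhibitory neurons.

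Total counts were 11755389 to 15392217 per female library. Genes with at least 1 count outside X and Y numbered 13791 ± 595.8 in PiC-MeA (SD, n = 3) and 13485.5 ± 417.3 in PiC-PrL libraries (n = 4), and genes with at least 10 counts 10053 ± 339.6 and 8920.75 ± 1105. The mitochondrial share of counts was 3.74% ± 0.35 in PiC-MeA and 7.16% ± 3.65 in PiC-PrL libraries (exact two-sided permutation p = 0.0571, adjusted p = 0.285 over 5 library measures). That p is the smallest that 3 libraries against 4 can give. PiC-PrL replicate 2 stood apart, with a mitochondrial share of 12.6% and 7495 genes at 10 counts. Snap25 and Camk2a, which mark neurons and excitatory forebrain neurons, had counts in every library. Several genes that neurons normally express strongly, among them Tubb3, Nefl and Map1lc3b, were listed at 0 in all 14 libraries, so a 0 in this table does not show that a transcript was absent.

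No gene passed the test of PiC-MeA against PiC-PrL. Of 10360 genes tested with the quasi-likelihood test of edgeR, 0 had an adjusted p under the threshold (background share 0.0%), and the smallest adjusted p was 0.359. An unadjusted p under 0.05 was reached by 624 genes (6.02% of those tested), of which 226 had higher levels in PiC-MeA (2.18%) and 398 lower levels (3.84%). For 554 genes (5.35%) all 3 PiC-MeA libraries lay above all 4 PiC-PrL libraries, and for 473 genes (4.57%) all 3 lay below, 1027 in all (9.91%). With the size factors of DESeq2 these were 523 (5.05%) and 502 (4.85%). A positive fitted change was seen in 47.6% of all genes tested, which is the background for the counts of positive changes in the gene lists below. On the same counts the Wald test of DESeq2 called 224 genes, 2.3% of the 9755 it gave an adjusted p, while limma voom with quality weights called 0. Of those 224 genes, 54 had at most 3 counts in every library of one group.

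Single tubes differed widely in which genes they held, the PiC-PrL tubes more among themselves than the PiC-MeA tubes. A gene could have at least 100 counts in one library and at most 3 in another, and 802 to 1637 genes did so in the 9 pairs of female libraries from the same group (median 1288). The 6 PiC-PrL pairs had 962 to 1637 and the 3 PiC-MeA pairs 802 to 942. In the 12 pairs that crossed the groups, the number was 881 to 1760 (median 1186). Spearman correlations across genes were 0.670 to 0.758 within groups and 0.674 to 0.757 between them, as descriptions across genes that are not independent. The common dispersion fitted by edgeR was 1.697 (a squared coefficient of variation between tubes).

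**Figure D1:**
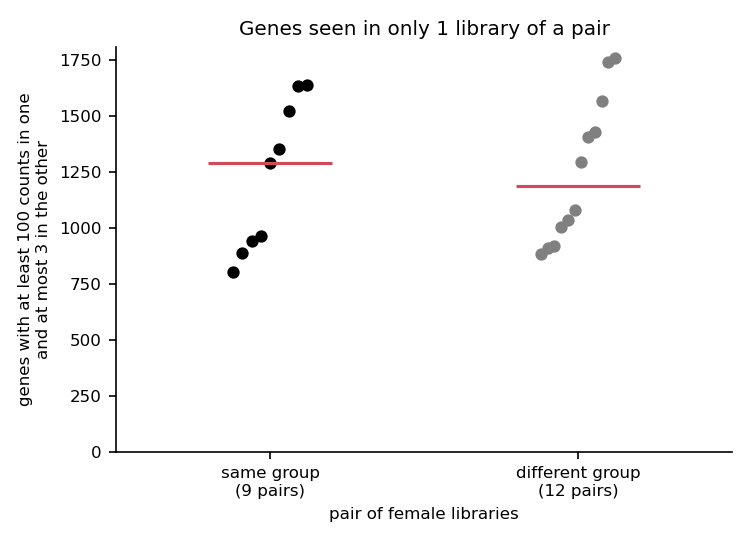
Number of genes with at least 100 counts in one female library and at most 3 in the other (vertical axis, genes), for each pair of libraries from the same group (9 pairs) or from different groups (12 pairs); red lines are medians. The same-group pairs span 802 to 1637 genes and the crossed pairs 881 to 1760, and the 3 PiC-MeA pairs (802 to 942) are the lowest of the same-group pairs.

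The 12 genes with the smallest p among those lower in PiC-MeA were Prune2, Mex3c, Gnb1, Nras, Micu3, Gsk3b, Dpysl2, Carf, H3f3b, Ppm1h, Prkar2a and Inpp4a. For each of them all 4 PiC-PrL libraries lay above all 3 PiC-MeA libraries, but the rule that picked them favours such genes, so this count is a description. Levels below are CPM, counts relative to each library's total, scaled to 1000000 after adjustment by the trimmed mean of M-values, for PiC-PrL replicates 1 to 4 and PiC-MeA replicates 1 to 3. Changes are log2 values, PiC-MeA minus PiC-PrL, ± SE, from edgeR, with adjusted p = 0.359 for each of these 12. The Wald test of DESeq2, which called 2.3% of all genes it gave an adjusted p, called all 24 leading genes, these 12 and the 12 higher ones below. They were picked for a small p on the same counts, so those calls are no separate result.

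Promoter sequence is shown for 3 of the 9 genes that share the direction and the male pattern described below. These 3, all on the plus strand, were picked by name and not by a rule, so they do not stand for the rest. Each window is the 250 bases before the gene's start in GRCm38.p6, from RefSeq, read 5′ to 3′, and capitals mark GC boxes, the letters GGGCGG or its reverse complement CCGCCC.
Gnb1 (chr4:155491111-155491360, plus strand): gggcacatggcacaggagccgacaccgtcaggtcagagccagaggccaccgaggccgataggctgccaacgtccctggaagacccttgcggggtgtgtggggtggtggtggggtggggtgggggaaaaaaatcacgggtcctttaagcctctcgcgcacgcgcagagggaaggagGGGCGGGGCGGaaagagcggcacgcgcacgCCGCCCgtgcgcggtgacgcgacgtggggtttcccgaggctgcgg
Prune2 (chr19:16955868-16956117, plus strand): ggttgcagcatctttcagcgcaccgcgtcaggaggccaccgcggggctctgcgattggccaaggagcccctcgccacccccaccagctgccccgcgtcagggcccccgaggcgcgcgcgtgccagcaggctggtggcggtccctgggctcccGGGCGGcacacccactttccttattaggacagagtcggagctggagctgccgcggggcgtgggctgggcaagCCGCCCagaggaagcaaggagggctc
Gsk3b (chr16:38088751-38089000, plus strand): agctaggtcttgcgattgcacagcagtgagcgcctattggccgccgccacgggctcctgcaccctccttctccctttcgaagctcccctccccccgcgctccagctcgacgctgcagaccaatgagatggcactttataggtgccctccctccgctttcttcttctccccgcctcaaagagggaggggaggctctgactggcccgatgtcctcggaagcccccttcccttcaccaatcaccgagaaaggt
A GC box is the short motif bound by Sp and Klf zinc finger factors. Gnb1 has 3 (the first pair share a base), Prune2 has 2 and Gsk3b has 0 in these windows. Of the 12 genes, 9 had an entry in the promoter table and 4 of these 9 held a GC box, against 35.4% of the 27025 genes with an entry. Of the 12 genes with higher levels described later, 7 of the 10 with an entry held one. A match is a description of letters and not a binding site.

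Gnb1, the beta 1 subunit of heterotrimeric G proteins that couple membrane receptors to their effectors (chromosome 4, 155491361 to 155559269, build mm10), stood at 5310, 9995, 6277 and 6168 CPM in PiC-PrL and at 2262, 1820 and 2681 CPM in PiC-MeA libraries. The groups did not overlap and the log2 change was -1.62 ± 0.27. Nras, a small GTPase upstream of the MAP kinase cascade (chromosome 3, 103058285 to 103067914), was at 508, 377, 476 and 479 CPM against 156, 132 and 124 CPM. The Nras libraries were tight within both groups (460 ± 57.2 and 137 ± 16.7 CPM), and the log2 change was -1.75 ± 0.30. Gsk3b, a kinase that inhibits glycogen synthase and acts in Wnt and insulin signalling (chromosome 16, 38089001 to 38246084), was at 1967, 4082, 2486 and 2413 CPM against 639, 914 and 900 CPM. Its log2 change was -1.74 ± 0.30, with the highest value in PiC-PrL replicate 2.

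Prkar2a, a regulatory subunit of protein kinase A (chromosome 9, 108689314 to 108750436), had 130, 274, 160 and 172 CPM in PiC-PrL and 7.62, 20.2 and 28.3 CPM in PiC-MeA libraries, a log2 change of -3.30 ± 0.63. Inpp4a, a phosphatase of phosphoinositides (chromosome 1, 37299865 to 37410736), was at 896, 1627, 1187 and 853 CPM against 366, 306 and 459 CPM (log2 -1.60 ± 0.31). Ppm1h, a protein phosphatase (chromosome 10, 122678762 to 122945795), was at 934, 1108, 735 and 531 CPM against 187, 180 and 313 CPM (log2 -1.87 ± 0.36). All 3 thus showed gaps between the groups that were wider than the range within PiC-MeA.

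Prune2, a protein with a lipid-binding domain (chromosome 19, 16956118 to 17223932), had the smallest p of all genes tested. It stood at 1079, 2332, 1359 and 1990 CPM in PiC-PrL and at 367, 330 and 285 CPM in PiC-MeA libraries, a log2 change of -2.37 ± 0.32. Micu3, a regulator of calcium uptake into mitochondria (chromosome 8, 40307458 to 40386308), was at 1252, 2757, 1156 and 1305 CPM against 375, 361 and 418 CPM (log2 -2.07 ± 0.36), again highest in PiC-PrL replicate 2. Dpysl2, also called CRMP2, which binds tubulin and acts in axon growth (chromosome 14, 66802864 to 66868688), was at 3597, 4308, 4297 and 3265 CPM against 1439, 1992 and 1705 CPM (log2 -1.18 ± 0.21). It had the smallest SE of these 12 genes.

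H3f3b, which encodes the replication-independent histone H3.3 (chromosome 11, 116021912 to 116027962), was at 1183, 1176, 882 and 1114 CPM against 483, 499 and 367 CPM (log2 -1.28 ± 0.25). Carf, a transcription factor that responds to calcium (chromosome 1, 60098247 to 60153953), was at 145, 225, 212 and 84.6 CPM against 3.35, 0.316 and 5.08 CPM (log2 -5.83 ± 1.04). Mex3c, an RNA-binding ubiquitin ligase (chromosome 18, 73573044 to 73592575), had 44.5, 152, 146 and 58.5 CPM in PiC-PrL libraries, while the 3 PiC-MeA libraries held 2 counts in all. The ratio of its summed counts was 1950 (539 to 16100, exact 95% interval covering counting error only). The 12 genes therefore ran from modest differences in abundant transcripts to near loss of detection in PiC-MeA.

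**Figure D2:**
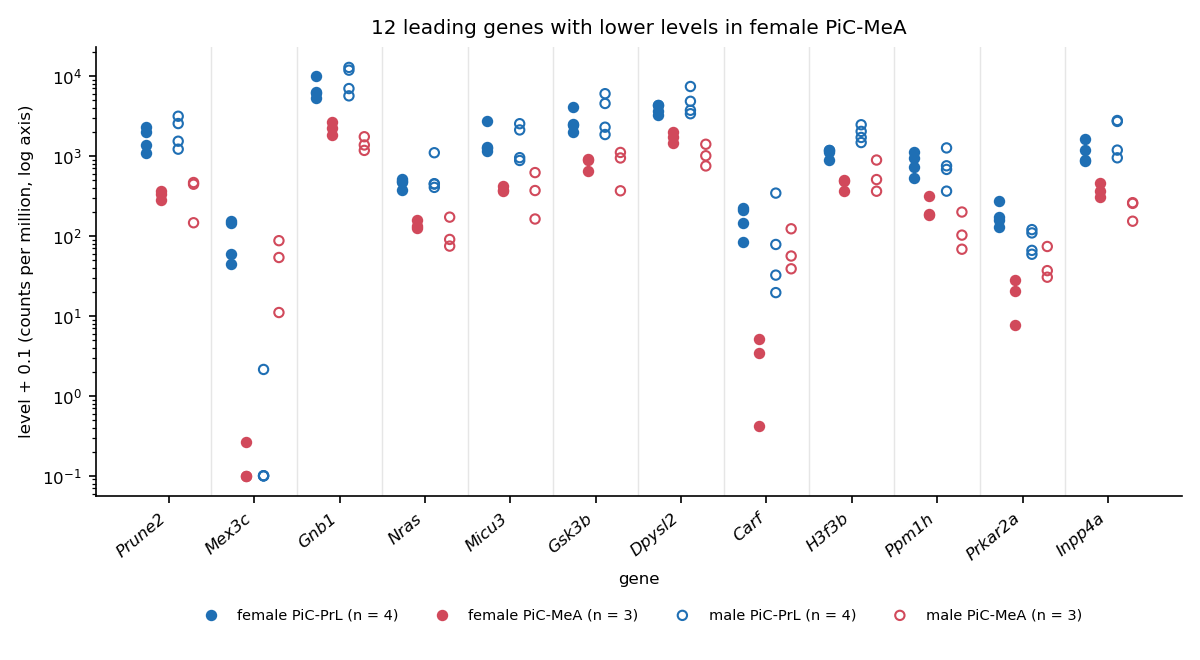
Levels (vertical axis, CPM + 0.1, log axis) of the 12 genes with the smallest p among those lower in female PiC-MeA, per library; filled points are female and open points male libraries, blue PiC-PrL and red PiC-MeA. Filled red points lie below filled blue points for all 12 genes, and the male points lie in the same order with no overlap for 9 of them but in the opposite order for Mex3c.

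Most of these genes lay in the same direction in the male libraries. Of the 12 genes, 11 had a negative fitted change in a separate edgeR fit of the 7 male libraries, where 58.0% of all genes with a negative female change did so (48.2% of all genes had the same sign in both sexes). For 9 of the 12 (75.0%) all male PiC-MeA libraries lay below all male PiC-PrL libraries, against 9.1% of all genes of the female test. That background holds genes of all levels, and the share among genes as abundant as these was not tested. These 9 were Prune2, Gnb1, Nras, Micu3, Gsk3b, Dpysl2, H3f3b, Ppm1h and Inpp4a. Gnb1 stood at 5636, 12780, 6953 and 11810 CPM in male PiC-PrL and at 1172, 1737 and 1370 CPM in male PiC-MeA libraries, a male log2 change of -2.78 ± 0.34 (edgeR adjusted p = 0.0295). Prune2 stood at 1527, 3134, 1214 and 2539 CPM against 146, 442 and 465 CPM (male log2 -2.69 ± 0.47, edgeR adjusted p = 0.0452).

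The same 9 genes passed in the male fit, where 941 of 12600 genes passed (7.47%), 195 of them lower (1.55%) and 746 higher (5.92%) in PiC-MeA. This call rested on every male library, since leaving out any 1 of them left 0 to 2 of the 12 genes and 0 to 7 genes in all past the threshold. The male PiC-MeA libraries also differed in detection, with counts for 18200 to 19154 genes against 11997 to 13158 in male PiC-PrL libraries. Total counts were lower in male PiC-MeA, at 6132985 to 10572618 against 14274982 to 15225936 in male PiC-PrL libraries. The part of detection and depth in the male result was not tested. Mex3c went the other way in males, at 2.04, 0, 0 and 0 CPM in PiC-PrL and at 10.9, 53.6 and 87 CPM in PiC-MeA libraries. Prkar2a and Carf overlapped between the male groups.

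The 12 genes with the smallest p among those higher in PiC-MeA included Zgpat, Cdca4, Csgalnact2, Cldn12, Stk17b, Dph1, Prr36, Cx3cl1, Fam131a and Aste1, and these 10 are described. Of the 10, Cx3cl1 and Fam131a had more than 10 counts in each PiC-PrL library. The other 8 had 0 to 5 counts in every PiC-PrL library and at least 189 counts in every PiC-MeA library. A fitted change against so few counts is set by the prior count, so counts are given for them in place of log2 values.

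Cx3cl1, or fractalkine, the ligand by which neurons signal to the microglial receptor Cx3cr1 (chromosome 8, 94772009 to 94782427), stood at 222, 81.2, 226 and 251 CPM against 609, 912 and 554 CPM (log2 1.82 ± 0.41, edgeR adjusted p = 0.404). Fam131a, a gene of poorly known function (chromosome 16, 20693241 to 20703048), stood at 145, 66.7, 207 and 202 CPM against 415, 580 and 741 CPM (log2 1.90 ± 0.43, edgeR adjusted p = 0.404). Both were lowest in PiC-PrL replicate 2.

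Cdca4 held 1 count over the 4 PiC-PrL libraries and 402, 805 and 361 counts in the PiC-MeA libraries (chromosome 12, 112820229 to 112829423). Csgalnact2, an enzyme that starts chondroitin sulfate chains (chromosome 6, 118107452 to 118139140), held 1 count against 482, 386 and 503. Stk17b, a kinase of the death-associated family, held 10 counts against 316, 695 and 523. Cldn12, a claudin of cell junctions, held 7 counts against 765, 1122 and 282. These genes had hardly any counts in PiC-PrL tubes. The rule that picked them required at least 10 counts in every PiC-MeA library and favours separate groups, so this pattern is a description.

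The remaining 4 of these 8 genes share bases with others, and the sources used here do not say whether reads were counted by strand. Zgpat, a zinc finger repressor, held 2 counts against 306, 839 and 796, and 45.9% of its exon bases lie in exons of Arfrp1 and Lime1. Dph1, which acts in diphthamide synthesis on elongation factor 2, held 3 counts against 593, 449 and 785 and shares 36.0% of its exon bases with Ovca2. Aste1 (1 count against 189, 325 and 600) shares 29.2% with Atp2c1 and Nek11, and Prr36 (1 count against 346, 541 and 328) shares some with Evi5l. Their counts are therefore uncertain as to gene.

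**Figure D3:**
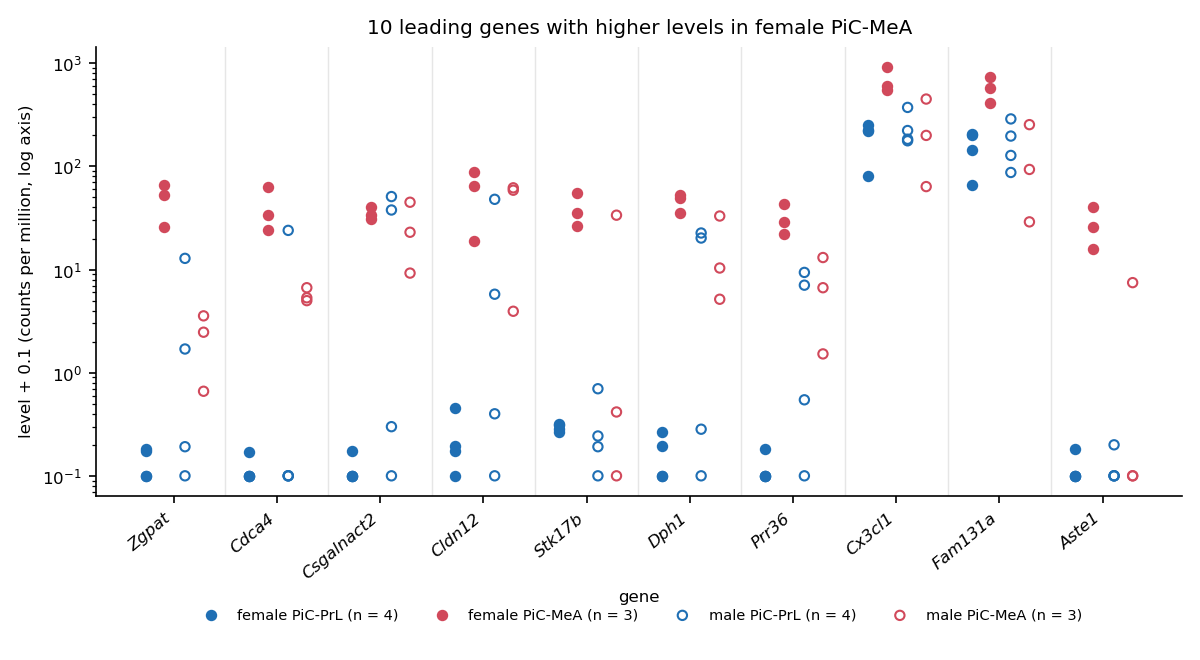
Levels (vertical axis, CPM + 0.1, log axis) of 10 of the 12 genes with the smallest p among those higher in female PiC-MeA, drawn as filled points for female and open points for male libraries, blue for PiC-PrL and red for PiC-MeA. The filled groups are apart for all 10 genes shown, which the rule that picked them favours. The open male groups overlap for all 10.

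The genes higher in female PiC-MeA did not separate the male groups. Of 10 that could be fitted in the male libraries, 6 had a positive change, where 37.5% of all genes with a positive female change did so, and for 0 of the 12 did the male groups stand apart in the same direction (background 10.8%). Cx3cl1 stood at 223, 373, 184 and 177 CPM in male PiC-PrL and at 450, 200 and 63.6 CPM in male PiC-MeA libraries, with overlap. Csgalnact2, nearly unseen in female PiC-PrL, stood at 37.7, 0, 50.9 and 0.2 CPM in male PiC-PrL libraries. Over all genes tested, 46 (0.444%) had at least 10 counts in every female PiC-MeA and at most 3 in every female PiC-PrL library, and 7 (0.0676%) showed the reverse. In males 6 of the 46 and 0 of the 7 showed the same pattern, and 1.69% of all genes tested showed it for PiC-MeA.

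The difference between the female and the male projection difference was tested over all 14 libraries, and 0 of 14080 genes passed in edgeR (background share 0.0%), with 2226 genes (15.8%) at an unadjusted p under 0.05. The Wald test of DESeq2 called 1107 genes and limma voom with quality weights 680. For Prune2 the difference of the changes in edgeR, female minus male, was 0.08 ± 0.58 (adjusted p = 0.981), and for Micu3 -0.14 ± 0.65 (adjusted p = 0.966). For Gnb1 the edgeR value was 0.95 ± 0.43 (adjusted p = 0.29), and for Cx3cl1 1.73 ± 0.76 (adjusted p = 0.275). Among the 24 leading genes the smallest adjusted p in edgeR was 0.15, shared by Mex3c, Carf, Zgpat and Csgalnact2. A p that misses the threshold does not show that the sexes act alike.

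Markers of excitatory projection neurons were present in both groups and their summed levels overlapped. Of 15 tested, 6 had a positive change (median -0.22, against -0.06 over all genes tested), and the sum of the list was 3521 to 4378 CPM in PiC-PrL and 3450 to 4923 CPM in PiC-MeA libraries. Camk2a, a calcium-activated kinase of excitatory synapses, stood at 842, 645, 685 and 639 CPM against 1232, 1264 and 878 CPM (log2 0.68 ± 0.24, edgeR adjusted p = 0.643). Sv2b, a synaptic vesicle protein, stood at 224, 163, 202 and 473 CPM against 864, 711 and 574 CPM (log2 1.43 ± 0.40, edgeR adjusted p = 0.467). Arpp21, also on this list, leaned the other way with overlap, at 1600, 1972, 797 and 753 CPM against 1069, 1001 and 668.5 CPM (log2 -0.49 ± 0.38, edgeR adjusted p = 0.999). Slc17a7, the vesicular glutamate transporter of cortical neurons, overlapped at 10.2 to 79 CPM in PiC-PrL and 27.8 to 74.5 CPM in PiC-MeA libraries. The pan-neuronal gene Snap25, a membrane fusion protein, was at 6379 to 12260 CPM against 5388 to 7716 CPM, and Rbfox3, the neuronal antigen NeuN, at 125 to 202 CPM against 125 to 157 CPM. Both ranges overlapped. Because each tube is a small bulk sample, fewer cells of a type and less RNA per cell cannot be told apart.

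Genes of GABA-releasing inhibitory neurons had lower levels in PiC-MeA. Of 15 tested, 13 had a negative change with a median of -2.30, and the list summed to 1067 to 6421 CPM in PiC-PrL and to 323 to 617 CPM in PiC-MeA libraries, without overlap. Gad1, the enzyme that makes GABA, stood at 912, 50.3, 47.7 and 344 CPM against 1.76, 34.5 and 3.01 CPM (log2 -4.69 ± 1.49, edgeR adjusted p = 0.59). Npy, neuropeptide Y, stood at 1546, 18.3, 111 and 3377 CPM against 6.11, 0.158 and 14.8 CPM (log2 -7.48 ± 2.06, edgeR adjusted p = 0.467). PiC-PrL replicates 1 and 4 thus carried most of both transcripts. Erbb4, the neuregulin receptor, was also apart, at 172 to 392 CPM against 3.26 to 119 CPM. Gad2 overlapped at 9.7 to 199 CPM against 0.079 to 56.6 CPM, and Slc32a1, the vesicular GABA transporter that defines the class, was listed at 0 in all 7. In males Gad1 lay the other way, at 5.02 to 65 CPM in PiC-PrL and 27.2 to 892 CPM in PiC-MeA libraries, with overlap.

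Astrocyte genes followed a similar order. Of 14 tested, 10 had a negative change with a median of -1.33, and the list summed to 2660 to 3720 CPM in PiC-PrL against 1498 to 1717 CPM in PiC-MeA libraries. Slc1a2, the main glutamate transporter of astrocytes, stood at 538, 606, 512 and 902 CPM against 318, 173 and 170 CPM (log2 -1.54 ± 0.36, edgeR adjusted p = 0.445). Aqp4, the astrocyte water channel, held 209, 937, 689 and 0 counts in PiC-PrL and 0 counts in all 3 PiC-MeA libraries, at least 168.5-fold higher over the group with a floor of 3 counts per library (97.51-fold without PiC-PrL replicate 2). The Aqp4 groups overlapped through the 0 counts of PiC-PrL replicate 4, while those of Slc1a2 were apart. Slc4a4, a bicarbonate transporter, at 9.26 to 37 CPM against 0.237 to 0.669 CPM, was also apart. So were Sox9, a glial transcription factor, at 9.26 to 51.9 CPM against 0.079 to 1.41 CPM, and the glycolytic enzyme Aldoc at 606 to 1365 CPM against 375 to 512 CPM. Gfap, the intermediate filament of reactive astrocytes, was the exception among these, at 0 to 6.03 CPM in PiC-PrL and 20.1 to 52.2 CPM in PiC-MeA libraries. In the male libraries these genes did not share a direction. Slc1a2 overlapped (male log2 0.00 ± 0.35), and Aldoc was lower in PiC-MeA without overlap, at 1235 to 4853 CPM against 399 to 939 CPM (male log2 -1.97 ± 0.50, edgeR adjusted p = 0.0452). Slc4a4 and Aqp4 overlapped with male log2 changes of 2.30 ± 1.52 and 2.11 ± 2.01.

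Genes of other cell classes overlapped between the groups or summed to low levels. Oligodendrocyte genes summed to 396 to 1731 CPM in PiC-PrL and 463 to 1378 CPM in PiC-MeA libraries, and microglial genes to 232 to 510 CPM and 212 to 658 CPM. Oligodendrocyte precursor genes summed to 50.1 to 378 CPM against 51.9 to 131 CPM. Endothelial and mural genes summed to 3.09 to 124 CPM against 0.869 to 2.68 CPM, with Cldn5 listed at 0 in all 7 libraries and Flt1 at no more than 0.468 CPM. Red blood cell genes reached 535 CPM in 1 PiC-PrL library and 73.6 CPM at most in PiC-MeA libraries. The parts that inhibitory, astrocyte and vascular RNA play in the differences of other genes were not tested.

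**Figure D4:**
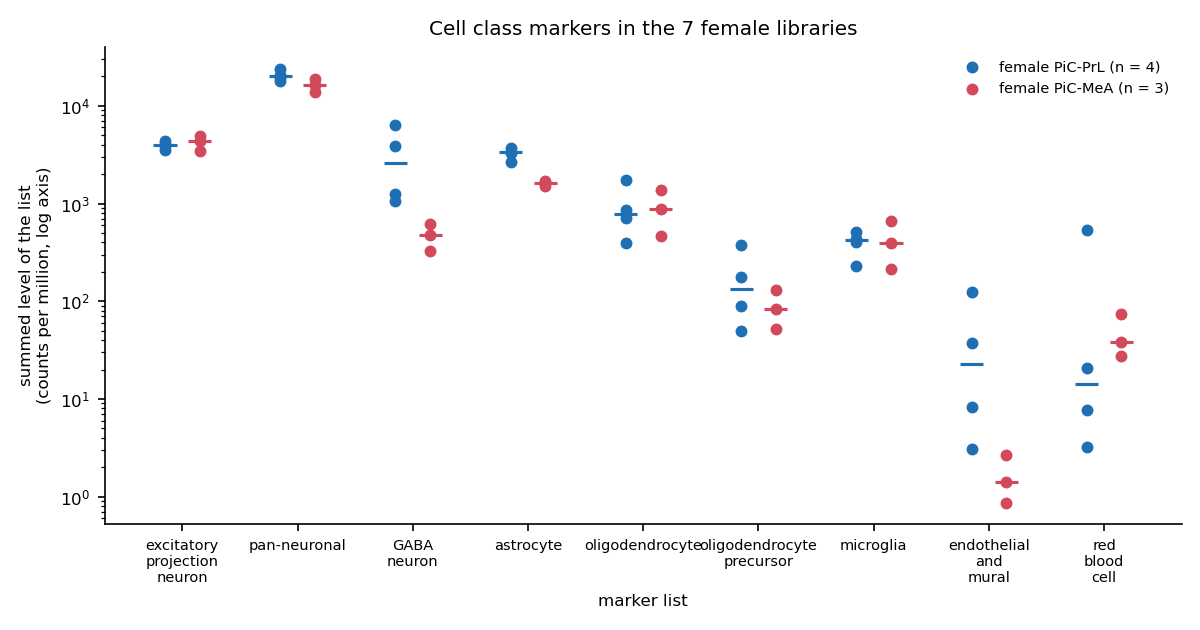
Summed level of each marker list (vertical axis, CPM, log axis) in the 4 female PiC-PrL (blue) and 3 female PiC-MeA (red) libraries; points are libraries and bars are medians. GABA neuron and astrocyte sums do not overlap between the groups, being lower in PiC-MeA, while excitatory and microglial sums overlap. Endothelial and mural sums are low and apart only by 3.09 CPM in the lowest PiC-PrL against 2.68 CPM in the highest PiC-MeA library, with 1 gene of that list tested.

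Transcription factors of the forebrain and cortical layers were mostly lower in PiC-MeA. Of 40 tested, 29 had a negative change with a median of -0.79, and 5 stood apart lower and 0 higher (4.57% and 5.35% of all genes tested). Klf13, a zinc finger factor of the Sp and Klf family (chromosome 7, 63886351 to 63938915), stood at 902, 1204, 978 and 1066 CPM in PiC-PrL and at 284, 405 and 521 CPM in PiC-MeA libraries (log2 -1.36 ± 0.28, edgeR adjusted p = 0.359). In males Klf13 was at 887 to 2758 CPM against 131 to 207 CPM, also without overlap. Zbtb20, a repressor active in hippocampal and glial development, stood at 58.4, 870, 291 and 106 CPM against 18.7, 9.96 and 13.5 CPM (log2 -4.56 ± 0.98, edgeR adjusted p = 0.359), and its male groups overlapped. Without PiC-PrL replicate 2, its highest library, the log2 change was -3.43. Foxp1 (112 to 233 CPM against 10.7 to 52.3 CPM), Nfib (426 to 769 against 153 to 374 CPM) and Tcf4 (350 to 508 against 189 to 304 CPM), all regulators of cortical neuron development, were likewise apart. Zbtb20 is also expressed by astrocytes, whose genes had negative changes here, and the part of astrocyte RNA in its difference was not tested.

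Mitochondrially encoded transcripts were lower in PiC-MeA, which restates the library shares given above, since both rest on the same counts. Of 22 tested, 18 had a negative change with a median of -0.75, and the list summed to 43920 to 163500 CPM against 30460 to 38840 CPM. Cytochrome b (mt-Cytb) stood at 17170, 80990, 15460 and 16710 CPM in PiC-PrL and at 7279, 8431 and 7856 CPM in PiC-MeA libraries (log2 -2.05 ± 0.60, edgeR adjusted p = 0.515). PiC-PrL replicate 2 had the extreme value, and the log2 change without it was -1.06. In males the mitochondrial shares of the groups overlapped, at 3.97% to 8.73% in PiC-PrL and 4.975% to 15.95% in PiC-MeA libraries. In the nuclear-encoded respiratory chain 36 of 70 changes were positive, with a median of 0.01 (-0.20 to 0.08 with any 1 library left out), and 4 genes stood apart higher and 7 lower (5.35% and 4.57% of all genes). Atp5b, the catalytic subunit of ATP synthase, stood at 1071, 1298, 1083 and 1415 CPM against 2158, 2403 and 2175 CPM (log2 0.88 ± 0.20, edgeR adjusted p = 0.42). The complex I subunits Ndufa8 (267, 345, 257 and 355 CPM against 179, 210 and 137 CPM) and Ndufb2 (56.5, 41.1, 56.8 and 128 CPM against 17.2, 11.5 and 31.6 CPM) lay the other way, with log2 changes of -0.80 ± 0.33 and -1.81 ± 0.89.

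Glycolysis and the citric acid cycle leaned towards PiC-MeA. Of 37 genes tested, 26 had a positive change with a median of 0.33, 7 stood apart higher and 3 lower (5.35% and 4.57% of all genes). Gapdh, the glyceraldehyde-phosphate dehydrogenase, stood at 90.3, 56.3, 99.5 and 91.7 CPM against 238, 198 and 138 CPM (log2 1.18 ± 0.43, edgeR adjusted p = 0.65). Hk1, the hexokinase of neurons, stood at 39.4 to 81.1 CPM against 122 to 150 CPM, and Eno2, neuronal enolase, at 268 to 574 CPM against 634 to 806 CPM. Pkm (486 to 1728 CPM against 1861 to 2442 CPM), Ldha (625 to 1273 against 1382 to 2026 CPM), Pfkl (52.8 to 230 against 240 to 307 CPM) and Cs, citrate synthase (158 to 229 against 235 to 416 CPM), were also apart. The exceptions lower in PiC-MeA were Aldoc, Pdhb and Sucla2. The smallest gaps were those of Cs and Pfkl.

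Tubulins and other cytoskeletal genes split. Of 30 tested, 16 had a positive change with a median of 0.18, and 8 stood apart higher, against 5.35% of all genes, and 1 lower, Dpysl2. Tubb4a, a brain beta tubulin, stood at 1078, 641, 1184 and 932 CPM against 1671, 1722 and 2120 CPM (log2 0.94 ± 0.26, edgeR adjusted p = 0.46). Tuba4a stood at 357, 112, 351 and 510 CPM against 968, 762 and 696 CPM (log2 1.28 ± 0.44, edgeR adjusted p = 0.643), and 37.3% of its exon bases lie in exons of Stk16. Tubb2a, Tuba1b, Tuba1c, Stmn1 (stathmin), Map4 and Crmp1, a relative of Dpysl2, were the others that stood apart higher. Tubulin genes are near-identical copies, so reads may be split among them.

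Proteins of the synapse held members apart in each direction. Of 47 genes of synaptic vesicles and release, 3 stood apart higher in PiC-MeA (Sv2b, Syt17 and Vamp2) and 5 lower (Syn2, Rims3, Syt4, Bsn and Unc13b), where 5.35% and 4.57% of all genes did so, with a median of -0.10 (-0.15 to 0.19 with any 1 library left out). Vamp2, the vesicle fusion protein synaptobrevin, stood at 93.3, 66.8, 307 and 454 CPM against 617, 784 and 860 CPM (log2 1.71 ± 0.61, edgeR adjusted p = 0.643). Syn2, which tethers vesicles, stood at 566, 748, 830 and 792 CPM against 372, 348 and 320 CPM (log2 -1.08 ± 0.26, edgeR adjusted p = 0.445). Rims3 was apart only by 0.187 CPM in PiC-PrL replicate 2 against 0.158 CPM in PiC-MeA replicate 2, with 2 counts in each. On the postsynaptic side, Ppp3ca, the catalytic subunit of calcineurin, was at 1226 to 2897 CPM against 772 to 956 CPM (log2 -1.29 ± 0.33, edgeR adjusted p = 0.445). Glutamate receptor genes had a negative change in 21 of 28 (median -0.50), yet Gria2, an AMPA receptor subunit, was higher, at 553 to 1290 CPM against 1268 to 1811 CPM (log2 0.97 ± 0.32, edgeR adjusted p = 0.629), with overlap only through PiC-PrL replicate 2.

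Of 25 sodium and calcium channel genes 3 stood apart higher and 3 lower, of 51 potassium and HCN channel genes 0 and 2, and of 16 GABA and glycine receptor genes 1 and 1 (5.35% and 4.57% of all genes). Nalcn, the sodium leak channel that sets resting potential, stood at 106, 103, 88.6 and 182 CPM against 35.6, 30 and 38.1 CPM (log2 -1.79 ± 0.57, edgeR adjusted p = 0.592). Kcnma1, the large-conductance potassium channel, stood at 532 to 1144 CPM against 325 to 416 CPM. Cacng3, an auxiliary subunit of AMPA receptors, stood at 130 to 256 CPM against 288 to 504 CPM, and Glrb, the glycine receptor beta subunit, at 68.4 to 185 CPM against 221 to 387 CPM. Kcnh5, a voltage-gated potassium channel, held 3 counts over the PiC-MeA libraries and 1568 over the PiC-PrL libraries. Over the potassium channel list as a whole, 21 of 51 changes were positive (median -0.22, and -0.53 to 0.04 with any 1 library left out).

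Among receptors for amines, acetylcholine and peptides, 17 of 26 had a positive change (median 0.41). Cckbr, a cholecystokinin receptor, stood at 18.2, 14.6, 44.9 and 75.1 CPM in PiC-PrL and at 172, 147 and 115 CPM in PiC-MeA libraries (log2 1.92 ± 0.69, edgeR adjusted p = 0.65). Ntsr1, the neurotensin receptor used as a marker of deep cortical layers, held 3 counts over the 4 PiC-PrL libraries and 241 over the 3 PiC-MeA libraries, a ratio of 103 (34.8 to 502, exact 95% interval covering counting error only). Oprm1, the mu opioid receptor, reached 147 CPM in PiC-PrL replicate 1 and 18.8 CPM in replicate 4, with at most 1.19 CPM in the other libraries of either group. Its value rests on those tubes.

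Guidance and adhesion genes stood apart at shares near those of all genes (5.35% higher and 4.57% lower). In the axon guidance list 4 of 51 stood apart higher and 3 lower, with a median of -0.23 (-0.62 to 0.28 with any 1 library left out), and in the adhesion list 4 of 53 higher and 0 lower. Epha4, an ephrin receptor, stood at 325, 776, 315 and 614 CPM against 110, 280 and 132 CPM (log2 -1.54 ± 0.48, edgeR adjusted p = 0.574), and Dcc, a netrin receptor, at 194, 49.5, 85.9 and 156 CPM against 27.5, 34.1 and 31.1 CPM (log2 -1.97 ± 0.66, edgeR adjusted p = 0.629). Nrp1, a semaphorin receptor, lay the other way, at 0 to 8.76 CPM against 23.3 to 86.6 CPM, as did Cdh11, a cadherin, at 0 to 32.5 CPM against 93.4 to 252 CPM.

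Sterol synthesis had a positive change in 12 of 19 genes (median 0.72). At an unadjusted edgeR p under 0.05, however, 0 of them were higher and 2 lower (2.18% and 3.84% of all genes tested). Insig1, a regulator of the pathway, stood at 47.8, 180, 90.6 and 230 CPM against 20.5, 49.1 and 51.6 CPM, with overlap. Hmgcs1, an early enzyme of the pathway, stood at 88.6 to 212 CPM against 221 to 291 CPM. With the size factors of DESeq2 its groups overlapped. Chromatin modifier genes had a negative change in 47 of 63 (median -0.49). Arid1a, a subunit of the BAF remodelling complex, stood at 134 to 250 CPM against 62.2 to 85.2 CPM. Cytosolic ribosomal proteins (39 of 68 positive, median 0.04) and proteasome subunits (20 of 42, median -0.01) were near the median of all genes.

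Steroid hormone receptors, which the series title concerns through sex hormones, overlapped between the projections. Nr3c1, the glucocorticoid receptor, stood at 157, 2.24, 53.1 and 136 CPM in PiC-PrL and at 155, 87.6 and 156 CPM in PiC-MeA libraries. Pgr, the progesterone receptor, stood at 34.2, 0.0935, 59.7 and 0.214 CPM against 39.3, 14.6 and 29.6 CPM. Esr1, estrogen receptor alpha, was near 0 in most tubes but at 56.5 CPM in PiC-PrL replicate 3 and at 12.6 and 44.6 CPM in PiC-MeA replicates 1 and 3. Esr2 and Cyp19a1, which encode estrogen receptor beta and aromatase, had at most 0.134 and 0.251 CPM in any of the 7 libraries. Of their coactivators, Ncoa1 was apart at 145, 137, 143 and 145 CPM against 51, 81.9 and 34.3 CPM (log2 -1.35 ± 0.50, edgeR adjusted p = 0.666) and Ncoa3 at 56.9 to 124 CPM against 14.6 to 43.4 CPM.

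Few of the genes outside the leading ones had the same order in both sexes without overlap. Of the 17 other genes named by the rule that stood apart higher in female PiC-MeA, the male groups stood apart in the same direction for 1 (Ntsr1) and in the opposite one for 4 (Cckbr, Tubb4a and the proteasome genes Psmd8 and Psmb7), and they overlapped for 12. Of the 30 that stood apart lower, 6 were apart in the same direction in males (Aldoc, Klf13, Ncoa3, Ndufa8, Rps14 and Dnajb6), 2 in the opposite one (Arid1a and Ndufb2) and 22 overlapped. The background in males was 10.8% of genes apart higher and 9.1% apart lower. Cckbr stood at 74.7, 116, 84 and 83.9 CPM in male PiC-PrL and at 61.3, 53.8 and 32.7 CPM in male PiC-MeA libraries. Tubb4a stood at 1983, 1597, 2012 and 1619 CPM against 1429, 442 and 219 CPM (male log2 -1.43 ± 0.58, edgeR adjusted p = 0.172). Both thus lay opposite to their female order.

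**Figure D5:**
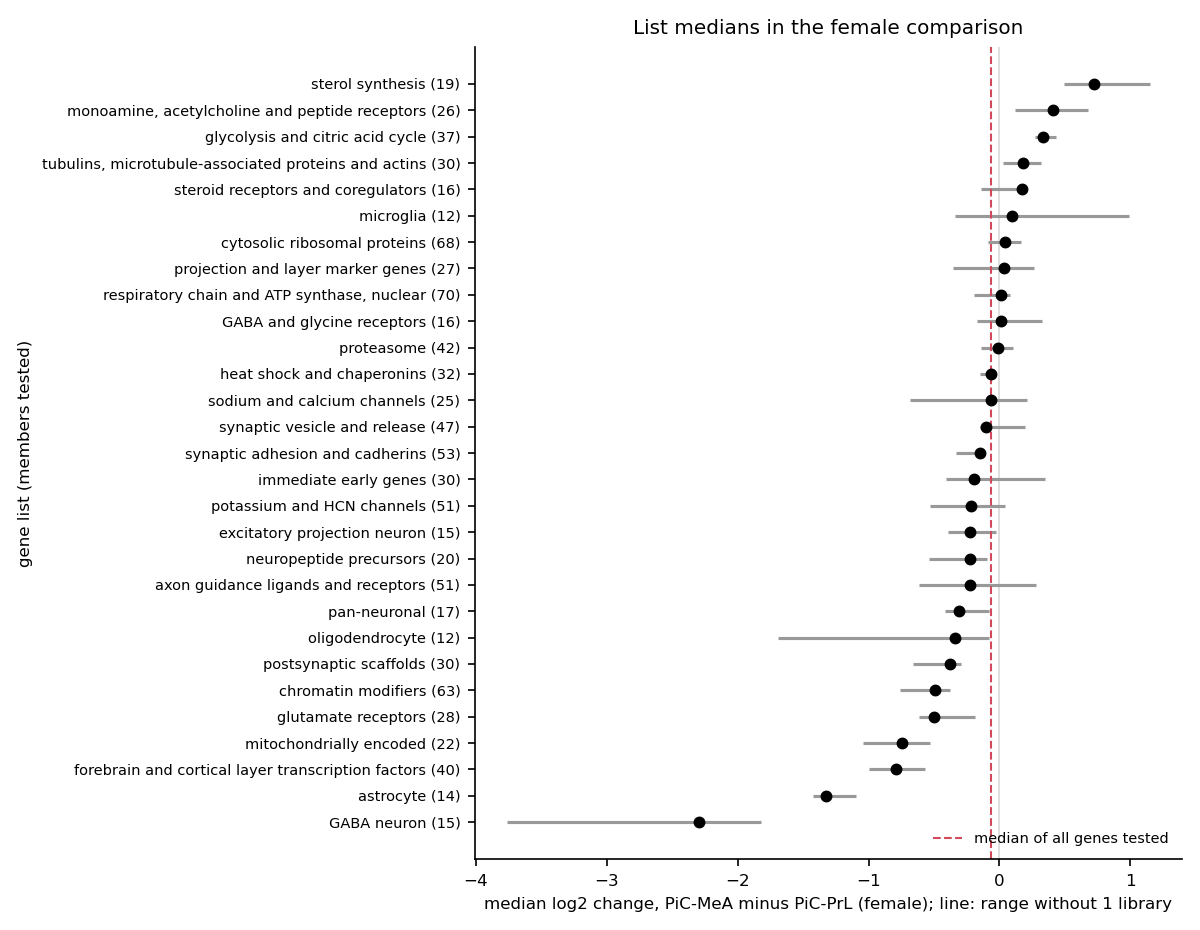
Median log2 change, PiC-MeA minus PiC-PrL (horizontal axis), of each gene list with at least 10 members tested (number in brackets); lines span the medians with any 1 female library left out, and the dashed line is the median of all genes tested (-0.06). GABA neuron (-2.30) and astrocyte (-1.33) lists lie lowest and sterol synthesis (0.72) highest.

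Fitted changes were lower for longer genes. With all genes tested split into 5 groups of equal number by gene span, the median change was 0.02 for the shortest and -0.35 for the longest group, and by exon length it was -0.01 and -0.34. In the group with the longest exons 38.5% of genes had a positive change, against 49.6% in the shortest. Of the 12 leading genes lower in PiC-MeA, 5 were in the group with the longest exons, and 0 of the 12 higher ones were. In the male libraries the order was the reverse, with a median of -0.95 for the shortest and 0.21 for the longest exon group. The part of gene length in the female differences was not tested gene by gene.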

How the data were processed

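Polyadenylated RNA of 14 tubes of labelled neurons was sequenced, and the 7 female libraries were compared. The values deposited by the authors are raw gene counts, 1 column per library, with no normalisation stated. Per the submitters' processing notes, reads were processed with HISAT2 2.2.1, featureCounts 2.0.1, Trimmomatic 0.39 and SAMtools on the build mm10, while the annotation, strand setting and treatment of shared reads are not named there. Of 55401 genes, 55141 matched GENCODE M21 without the version, which gave chromosomes, positions and exons. No column belonged to other samples (0).

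Genes on X and Y were removed (51254 stayed), and filterByExpr (minimum count 10, minimum total 15) left 10360. Factors from the trimmed mean of M-values and the robust quasi-likelihood test of edgeR 4.0.16 (R 4.3.3) were used on the 7 libraries, with Benjamini-Hochberg adjustment at 0.05. Male values come from a like fit of the 7 male libraries, male CPM and the test of the difference between the sexes from a fit of all 14. DESeq2 1.42.0 and limma 3.58.1 (voom with quality weights) were alternatives, with those listed in the closing section. The fits were tested on simulated counts.

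The members, gene lists and tests were chosen with earlier results of these data known. Named genes were the 12 with the smallest p in each direction among protein-coding or long noncoding genes with 10 counts or more in each higher-group library, the 3 members of each list with the smallest p, and defining genes of each cell class. Predicted genes and pseudogenes were left out. A few genes that the rule named are not reported here. Other genes were chosen after their values were seen, mostly list members whose groups did not overlap. Lists are described by counts and medians and were not tested. The labels do not say that equal replicate numbers share an animal, so the groups were fitted without a block. Residual correlations were -0.02 to 0.02 for 3 same-numbered pairs. With so few pairs of tubes that differ widely, these values cannot exclude a pairing. A count of 0 allows 3 counts per library, 0.201 to 0.281 CPM, and both this floor and the intervals of ratios reflect counting alone.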

Additional observations from a re-analysis of the deposited data

Results flagged for a closer look

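Of 87 values tested in the 4 female PiC-PrL libraries, 16 had 1 library far from the other 3. The Dixon ratio used (gap to the nearest library over the full range) flags about 1 in 20 only for normally distributed values. CPM of such small tubes need not be so distributed, so no chance rate is given. PiC-PrL replicate 2 had a mitochondrial share of 12.6%, mt-Cytb at 80990 CPM, Micu3 at 2757 CPM, Kcnma1 at 1144 CPM and Cx3cl1 at 81.2 CPM, the last being low.

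PiC-PrL replicate 4 stood apart for Sst, the somatostatin gene of inhibitory neurons, at 1410 CPM, for Cnih3, an AMPA receptor auxiliary protein, at 440.7 CPM, for Opcml at 632.8 CPM, Arid1a at 249.5 CPM, Lypd6 at 82.7 CPM and Cdh11 at 32.5 CPM. PiC-PrL replicate 1 stood apart for Oprm1 at 146.6 CPM. The remaining flags were single counts in 1 library where the other 3 had 0. Such a pattern always gives the largest ratio, so these flags follow from the rule. These were 0.0712 CPM of Cdca4 in replicate 4, 0.0724 CPM of Csgalnact2 in replicate 3, and 0.0827 CPM each of Prr36 and Aste1 in replicate 1.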

How the results depend on the processing

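The count of genes that passed between the projections in female libraries stayed at 0 with DESeq2 size factors, a filter of 10 counts in 4 libraries, limma voom, no robust option, all 14 libraries in the fit, a covariate for genes detected, X and Y genes kept, mitochondrial genes left out, and any 1 library left out (0 to 0). It was 39 with no filter, of which 1 gene lies below the filter of the text, and 224 by the DESeq2 Wald test (72 higher, 152 lower). With the replicate number as a block, which the labels do not support as a pairing, 0 genes passed, the smallest adjusted p was 0.846 in edgeR, and Sst turned to a log2 change of 0.49. For the difference between the sexes' projection differences, 76 genes passed with no filter, 1107 by the Wald test, 680 by limma voom and 0 with the replicate block, and 0 to 6 with any 1 library left out (6 without male PiC-MeA replicate 1).

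For 155 genes, 2658 values under up to 18 alternatives kept their direction and side of the threshold, 62 went past it (44 by the Wald test and 18 with no filter) and 27 reversed, none of them in a leading gene. Besides Sst these were in 10 genes. Log2 changes with the replicate block turned to 0.60 for Trf, 3.34 for Hba-a1 and 1.82 for Hbb-bs. With limma voom they turned to 0.29 for Lhfpl3, -1.27 for Pdgfra, 1.03 for Hba-a1 and 0.60 for Hbb-bs. With the covariate for genes detected they turned to 0.17 for Lhfpl3, -1.69 for Pdgfra, -3.60 for Esr1 and -0.056 for Pgr. With any 1 library left out the values ran from -2.49 to 0.73 for Trf, -1.37 to 0.47 for Lhfpl3, -6.97 to 2.53 for Pdgfra, -2.93 to 0.42 for Hba-a2, -2.14 to 2.85 for Hba-a1, -3.01 to 2.58 for Hbb-bs, -8.29 to 0.27 for Slc17a6, -4.85 to 0.023 for Mog, -1.22 to 0.97 for Esr1 and -0.17 to 1.28 for Pgr. The 9 leading lower genes that passed in males became 0 to 2 with any 1 male library left out. The median over all genes tested was -0.06 and became 0.17 with limma voom or with the block, and list medians near 0, such as those of axon guidance and synaptic vesicle genes, turned positive with it. The medians of GABA neuron (-3.76 to -1.82) and astrocyte genes (-1.43 to -1.10) kept their sign with any 1 female library left out. Removal of the trend with gene span, added after seeing the data, gave -1.87 and -1.25 for these. Depth was at least 11755389 counts per female library, and the common dispersion between female tubes was 1.697.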

Other observations

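Genes that nearly every cell uses were listed at 0 in all 14 libraries, among them Cox4i1, a subunit of cytochrome c oxidase, and the ribosomal protein genes Rpl13, Rpl24 and Rpl35, beside the neuronal genes Tubb3, Nefl and Map1lc3b. Over all gene lists used here, 44 of 1117 members were listed at 0 in every library. These genes were chosen after their values were seen.

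Deptor, Nefh and Rims3 had large fitted changes in females. Deptor, an inhibitor of mTOR, stood at 40.6, 0.654, 71.7 and 68.7 CPM in female PiC-PrL and at 0.0837, 0 and 0.268 CPM in female PiC-MeA libraries (log2 -8.46 ± 2.32, edgeR adjusted p = 0.46). The female PiC-MeA libraries held 5 counts of Deptor in all, so the size of its log2 value depends on the prior count. Nefh, the heavy neurofilament subunit of large axons, stood at 16.4, 74.7, 55.6 and 77.2 CPM against 1.09, 3.56 and 5.35 CPM (log2 -4.07 ± 1.28, edgeR adjusted p = 0.574). Rims3, a presynaptic scaffold protein, held 497, 2, 728 and 383 counts against 1, 2 and 0. Its count in PiC-PrL replicate 2 was thus as low as in PiC-MeA replicate 2. The male log2 changes were -1.485 ± 1.089 for Deptor, -0.34 ± 1.75 for Nefh and 0.25 ± 1.32 for Rims3, and the male groups overlapped for each. These SEs are too wide to tell a change near 0 from a large one.

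Among heat shock genes Stip1, a co-chaperone, stood at 149, 75.9, 246 and 271 CPM against 385, 563 and 359 CPM, while Dnajb6 stood at 356, 544, 433 and 321 CPM against 282, 235 and 146 CPM. The activity-related genes Dusp1 and Homer1 overlapped between the groups, at 169 to 383 CPM against 162 to 177 CPM and at 166 to 481 CPM against 164 to 240 CPM.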
